A study of Homo sapiens with 12 samples.

Results

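The unfolded protein response and the integrated stress response were represented by 31 human genes, a list of pathway genes drawn up by name with earlier results of these data known, and looked up by symbol in every table the authors deposited. All 31 were among the 19938 distinct gene symbols in the authors' gene table. WA01 cells, a widely used human embryonic stem cell line, had been turned into cortical neurons by inducing overexpression of the transcription factor NGN2. For 7 days the neurons received either an shRNA against TDP-43, an RNA-binding protein lost from the nucleus in amyotrophic lateral sclerosis and frontotemporal dementia, or a scrambled shRNA. Each treatment had 3 RNA-seq libraries of total RNA and 3 libraries of 3' end-seq, which reads the polyadenylated ends of transcripts. Both groups derive from the same line and carry the same NGN2 induction, and the labels do not say how many hairpins were used or whether replicates were separate cultures.

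The changes below are the authors' own comparisons of TDP-43 shRNA with scrambled shRNA, in tables that list changed items only and hold no value per library. No spread between replicates can be given, the depth is unknown, and every adjusted p is the authors'. Levels of RNA, including those of TARDBP (the gene of TDP-43), of the stress genes themselves and of neuronal markers, were not analysed here. A gene being listed therefore says that its transcript ends or splicing changed, and nothing about whether the stress response was on.

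The unfolded protein response adjusts the endoplasmic reticulum (ER) to its load of unfolded protein. Its sensors are IRE1 (gene ERN1), which splices the XBP1 messenger RNA, PERK (gene EIF2AK3), which phosphorylates eIF2 alpha (gene EIF2S1), and ATF6, a membrane protein whose released fragment enters the nucleus. Phosphorylated eIF2 alpha, the node shared with the integrated stress response, lowers general translation while favouring that of ATF4, a transcription factor for amino acid supply and, with DDIT3 (CHOP), for cell death under lasting stress. ER chaperones are induced through an ER stress response element in their promoters, spelled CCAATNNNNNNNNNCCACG. Matches to this spelling are shown as sequence only, and whether they act in induction was not examined. A gene without an exact match in the window searched can still be a target. The search covered both strands of RefSeq promoters in GRCh38.p14, from 250 bases before to 50 bases after each annotated start. Promoters were found for 30 of the 31 genes, all but SLC7A11. ER chaperone genes, for which this element is known, are among the members. The share of members with a match was therefore fixed in part beforehand, was not tested and is no finding about them. The element was present in 5 of these 30 genes, against 25 of the 27305 genes with a promoter in the table (0.0916%), and its fixed letters are in capitals:
HSPA5 (chr9:125241391-125241409, minus strand): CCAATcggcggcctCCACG
XBP1 (chr22:28800603-28800621, minus strand): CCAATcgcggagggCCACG
CALR (chr19:12938384-12938402, minus strand): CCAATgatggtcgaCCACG
CANX (chr5:179698778-179698796, plus strand): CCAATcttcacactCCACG
HSP90B1 (chr12:103930216-103930234, plus strand): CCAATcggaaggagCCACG
HSP90B1 (chr12:103930321-103930339, minus strand): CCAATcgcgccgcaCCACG

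Of these 5 genes, CANX alone was listed as changed in any deposited table, in splicing. None of the 6 members with a polyadenylation change had the element in this window. Of all genes in the authors' gene table, 22.4% were listed in any table. With so few genes, these counts do not set genes with the element apart from others. HSPA5 (the chaperone BiP), CALR (calreticulin), HSP90B1 (GRP94) and XBP1 were in none of the tables. A match describes the sequence and was not tested as a binding site.

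After TDP-43 knockdown, 9 of the 31 genes were listed with a changed transcript end or a changed splicing cluster. They were EIF2S1, ATF6, ATF3, CREB3L2, VLDLR, ASNS, DNAJB9, HYOU1 and CANX. That is 29.0% of the members, against 22.4% of the genes in the authors' gene table (4467 of 19938) listed in any of the same tables. By readout, 6 members (19.4%) were listed from 3' end-seq, where the background was 9.64%. A changed splicing cluster was listed for 3 members (9.68%), against 11.8% of all genes. Polyadenylation called from RNA-seq was changed in 1 member (3.23%, against 4.19%), and a cryptic site was listed in 1 member (3.23%, against 1.98%). These shares were not tested, because the members were picked with results known, and because the genes that the authors tested are not known and the gene table only stands in for them. For 31 genes, the shares for any table, splicing, RNA-seq polyadenylation and cryptic sites were near the background. They are no result about these genes, as the plot of listed shares shows.

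**Figure D1:**
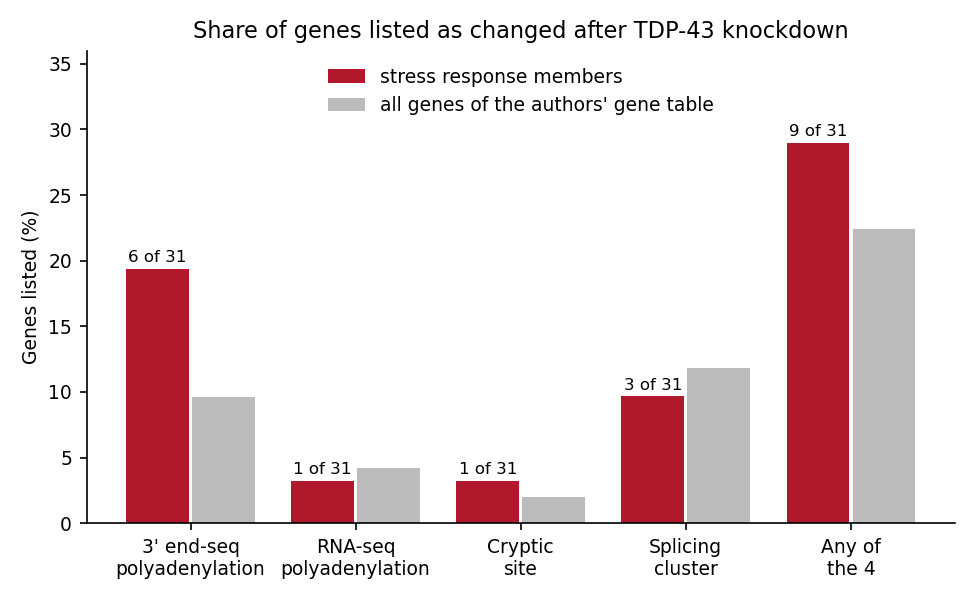
Percent of the 31 stress response genes (red, with counts) and of the 19938 genes in the authors' gene table (grey) that each kind of deposited table lists as changed by TDP-43 shRNA against scrambled shRNA. The red bar is above the grey one for 3' end-seq (6 of 31), the cryptic site (1 of 31) and any table (9 of 31), and below it for RNA-seq polyadenylation and splicing.

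By role, 2 of the 4 sensor and signal genes, 2 of the 7 transcription factors, 2 of the 10 targets of the integrated stress response, 3 of the 8 chaperone and folding genes and 0 of the 2 genes of ER-associated degradation were listed. Beside the 22.4% of all genes listed in any table, counts this small do not set the roles apart. Only EIF2S1 and VLDLR were in 2 of the tables, and the entries of VLDLR come from the same libraries. No member had both a splicing change and a polyadenylation change. The shares of all genes with such overlaps were not computed, so these counts are no result about the members. The other 22 members were listed nowhere. They were the sensors ERN1 and EIF2AK3, the transcription factors ATF4, ATF5, DDIT3, CEBPB and XBP1, the ATF4-linked genes TRIB3, CHAC1, PSAT1, PHGDH, DDIT4, SLC7A11, SLC3A2 and PPP1R15A, the chaperones HSPA5, CALR, HSP90B1, PDIA4 and SDF2L1, and the degradation factors HERPUD1 and SEL1L. Absence from a list of changed items does not show that a gene was unaffected.

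All 6 members in the 3' end-seq table were called longer, meaning that use moved to a site farther downstream in the TDP-43 shRNA neurons. A share of 84.7% of all 2220 genes listed from 3' end-seq was called longer, so the shared direction does not set the 6 apart. The median change of usage index in the authors' deposited table was 0.226 for the 6 members and 0.214 for the 1881 longer genes. At the 199 rising sites whose usage the authors gave separately, the size of this index was within 0.02 of the gain in usage as a fraction at 181 sites (91.0%). The median gap was 0.00466 and the largest 0.106, so at these sites the index is approximately a change in the fraction of use. VLDLR is the only member among them.

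ATF6 had the largest change of the members. ATF6 is made as an ER membrane protein and is cut in the Golgi under stress. Its change of usage index was 0.354 in the authors' deposited table (adjusted p = 1.15e-126), which ranked 231 among the 1881 longer genes. Use moved 5008 nt downstream, to position 161964069 in the TDP-43 shRNA neurons, away from position 161959061 on the plus strand of chromosome 1 (hg38).

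EIF2S1, which encodes the subunit of eIF2 that all kinases of the integrated stress response phosphorylate, was the member with evidence from both assays. Its index changed by 0.155 in 3' end-seq in the authors' deposited table (adjusted p = 2.18e-193). It ranked 1406 among the 1881 longer genes, the smallest change of the 6. The site that rose, at position 67386515 on the plus strand of chromosome 14, lay 2657 nt past the site that fell, at 67383858. RNA-seq, from separate libraries, called EIF2S1 distal with a change of 0.303 in the authors' deposited table (adjusted p = 0.0139). That change was at percentile 8.39 of the 799 distal genes (the percent at or below it), whose median was 0.765, and 95.0% of all genes in that table were distal. The RNA-seq index is on another scale, since 268 of its changes exceed 1 in size, and its sign is read as positive for more distal use in TDP-43 shRNA neurons, which the table leaves unstated.

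The transcription factors ATF3 and CREB3L2 had the longest distances between sites. ATF3, an early stress-induced factor that in neurons is also known as a marker of axon injury, changed by 0.230 in the authors' deposited table (adjusted p = 7.17e-12). Its rising site at 212620772 on the plus strand of chromosome 1 lay 30359 nt past its falling site at 212590413. RefSeq gives ATF3 a pair of start sites, and the falling site lay 25006 nt after the upstream start and 24605 nt before the downstream one. Transcripts from the downstream start cannot end at the falling site, so a change of start and a change of end cannot be told apart for this pair. CREB3L2, an ER membrane transcription factor related to ATF6 that is likewise released by cleavage, changed by 0.222 in the authors' deposited table (adjusted p = 8.74e-24). On the minus strand of chromosome 7, its rising site at 137874980 lay 38693 nt past its falling site at 137913673. Distances over 10000 nt were found in these 2 of the 6 members and in 20.3% of the 1881 longer genes.

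DNAJB9 (ERdj4), a co-chaperone of BiP that helps to hold IRE1 inactive, had the shortest move. Its sites at 108574401 (falling) and 108574847 (rising) on the plus strand of chromosome 7 were 446 nt apart, and its index changed by 0.195 in the authors' deposited table (adjusted p = 1.64e-43).

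**Figure D2:**
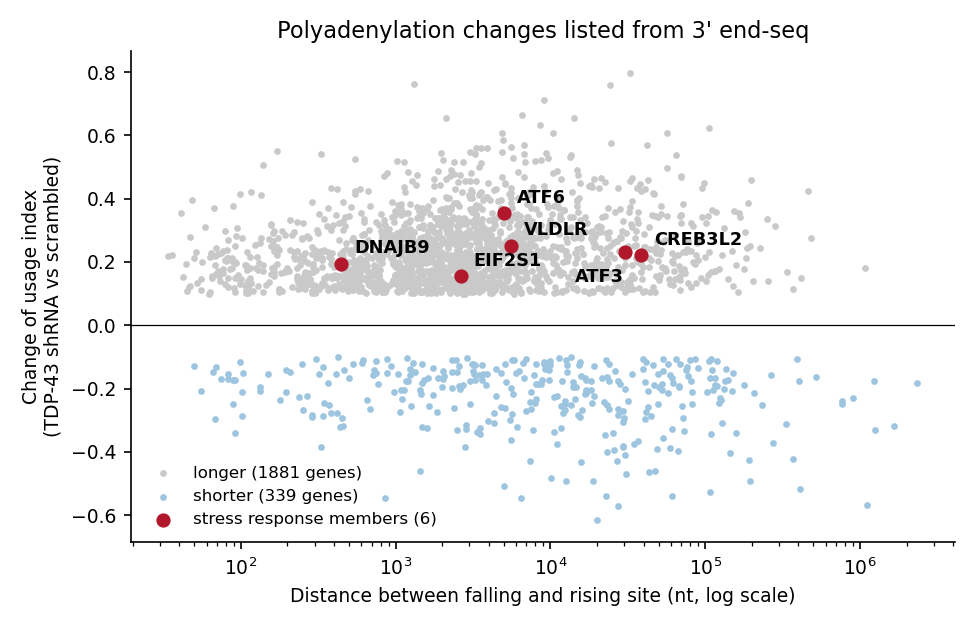
Change of usage index (vertical axis, TDP-43 shRNA against scrambled shRNA) against the distance in nt from the falling to the rising site (horizontal axis, log scale) for all 2220 genes listed from 3' end-seq. Grey points are the 1881 genes called longer, blue points the 339 called shorter, and red points the 6 stress response members, which lie between 0.155 and 0.354, within the range of the other longer genes.

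VLDLR, a lipoprotein receptor that also serves reelin signalling in neurons, was the only member with a site that the authors class as cryptic, one little used in control neurons. Usage of this site was 28.5% in TDP-43 shRNA neurons, against 3.49% in scrambled shRNA neurons, a gain of 25 percentage points in the authors' deposited table, with 1 value per group and no p. The site lies at position 2660054 on the plus strand of chromosome 9, was placed by the authors in the 3'UTR and was not marked as premature. Among the 144 cryptic 3'UTR sites, its usage in the knockdown was at percentile 83.3 (median 19% in TDP-43 shRNA neurons and 3.60% in scrambled shRNA neurons). The same position was the rising site of VLDLR in the 3' end-seq comparison, with a change of 0.251 (adjusted p = 9.92e-71) and a falling site 5576 nt upstream at 2654478 in the authors' deposited table. These entries come from the same libraries and are one observation.

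What the 6 lengthened members shared beyond their direction was where the rising site lay. In each of them it was at the 3' end of the RefSeq gene, before that end by 1 nt in ATF6, EIF2S1 and CREB3L2, 2 nt in VLDLR, 3 nt in DNAJB9 and 5 nt in ATF3. Their falling sites lay between 449 nt (DNAJB9) and 38694 nt (CREB3L2) before the end. Across the 1788 longer genes with a RefSeq match, the rising site was within 10 nt of the RefSeq end in 1145 (64.0%) and the falling site in 51 (2.85%). In a gene called longer the falling site lies upstream of the rising one, so the low share of falling sites follows largely from the call. The position of the members' rising sites is the more common one and was not tested against the rest. For VLDLR, the site classed as cryptic is thus within 2 nt of the end of the annotated gene.

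**Figure D3:**
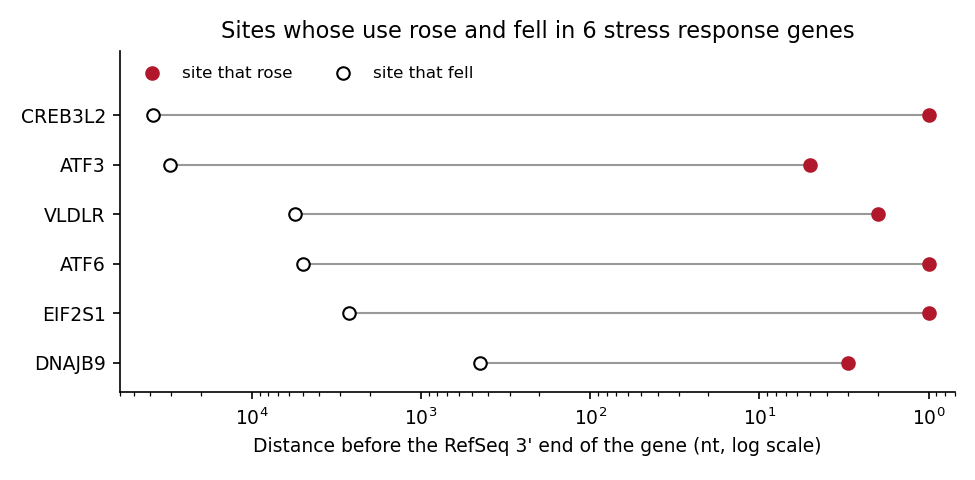
Distance of the rising site (red) and of the falling site (open circle) before the RefSeq 3' end of the gene, in nt on a log scale, for the 6 members listed from 3' end-seq. All 6 rising sites lie 1 to 5 nt before the end, while the falling sites lie 449 to 38694 nt before it.

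Splicing changed in HYOU1, ASNS and CANX. The authors' leafcutter tables group introns that share a splice site into clusters and give the change of each intron's share of its cluster, here in percentage points. The subtracted group is not named. Positive values are read as higher in TDP-43 shRNA neurons because the known TDP-43-repressed junction of STMN2 has positive changes. The authors' deposited table lists that junction in a cluster on each strand, with 44.9 points on the plus strand of the gene and 54.2 points on the minus strand.

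HYOU1 (GRP170), an ER chaperone that exchanges nucleotide on BiP, had the largest splicing change of the members. Its cluster of 5 introns (adjusted p = 0.00528) lies at 119056167 to 119057153 on the minus strand of chromosome 11, at the start of the gene. All 5 introns end at the same 3' splice site and differ in the 5' splice site. The annotated intron from the donor at 119057153, 52 nt after the RefSeq start, gained 21.5 points in the authors' deposited table. The annotated intron from the donor at 119057020, 185 nt after the start, changed by -16.0 points in the authors' deposited table. The donors of these introns are 133 nt apart, and share moved to the one nearer the start. The annotated starts of HYOU1 were not compared with the positions of these donors, so a change of start and a change of splicing cannot be told apart here. The remaining introns, from donors that are not annotated, had changes of -0.5, -3.2 and -1.8 points, together -5.5, in the authors' deposited table. The largest gain and the largest loss were thus at annotated junctions, and junctions with an unannotated donor lost share as well. A largest change of 21.5 points is at percentile 91.6 of the 2994 changed clusters, whose median was 6.4 points.

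ASNS, asparagine synthetase and a standard readout of ATF4 activity, had a cluster of 2 introns on the minus strand of chromosome 7 (adjusted p = 0.0317). The annotated intron from 97854680 to 97855353 changed by -4.2 points and an intron to an unannotated 3' splice site at 97854754 gained 4.2 points in the authors' deposited table. The unannotated acceptor is 74 nt upstream of the annotated one, a distance that is not a multiple of 3, and lies 3077 nt before the RefSeq end of the gene. Whether the exon affected is coding was not examined.

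CANX (calnexin), a lectin chaperone of the ER membrane, had 2 clusters with small changes. In the first (6 introns, adjusted p = 0.0400), all introns end at the 3' splice site at 179705679 on chromosome 5. The introns from unannotated donors at 179678777, 179679284 and 179698603 gained 1.5, 1.4 and 0.8 points in the authors' deposited table. Shares of the annotated introns from 179699049 and 179699102 changed by -1.1 and by -1.9 points, and that of the unannotated donor at 179699770 by -0.6, in the authors' deposited table. The donors at 179678777 and 179679284 lie 121 and 628 nt after the RefSeq start of the gene, and the annotated donors 20393 and 20446 nt after it. RefSeq promoters give CANX 4 starts between 179698427 and 179698967, all upstream of the annotated donors and downstream of the donors at 179678777 and 179679284. For these introns a change of start and a change of splicing cannot be told apart. In the second cluster (4 introns, adjusted p = 0.0153), the annotated intron from 179723779 to 179724657 gained 1.6 points in the authors' deposited table and no intron changed by more than that in size. The largest changes, 1.9 and 1.6 points, are at percentiles 12.6 and 9.42 of all changed clusters.

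**Figure D4:**
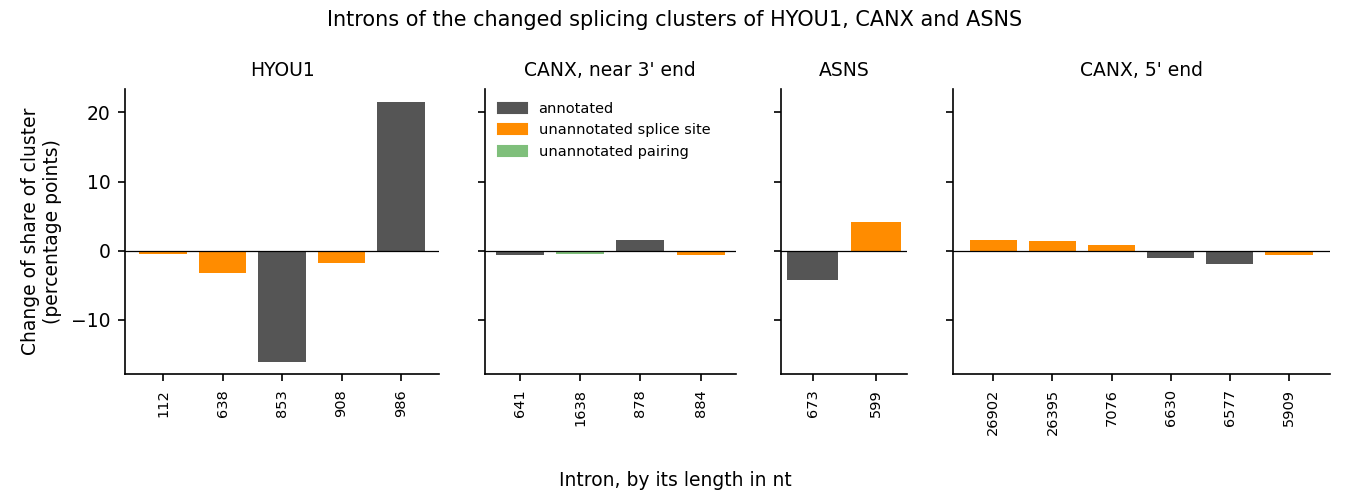
Change of each intron's share of its cluster in percentage points (TDP-43 shRNA against scrambled shRNA as read here) for the 4 changed clusters of HYOU1, CANX and ASNS, with introns named by the distance in nt between their listed ends. Grey bars are annotated introns, orange bars have an unannotated splice site and the green bar pairs annotated sites in a new way, and the bars of HYOU1 at 21.5 and -16.0 points exceed all others.

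Related pathway genes, 125 in 6 lists, were listed about as often as other genes. Of the 125, 120 were in the authors' gene table, and 29 of these 120 (24.2%) were in at least 1 table of changes, against the background of 22.4%. From 3' end-seq 9 were longer and 0 shorter, from RNA-seq 6 were distal and 1 proximal, 1 had a cryptic site, and 14 had a changed splicing cluster. In 8 of the 9 longer genes the rising site was within 10 nt of the RefSeq end. The 11 other sensors and membrane transcription factors, which include ATF6B, MBTPS1 and MBTPS2, had 0 listed members. Of these 11, 10 were in the authors' gene table. Counts per list, here and below, are small and do not set any list apart from the background of 22.4%. All entries below are at the authors' adjusted p of at most 0.05, except cryptic sites, which have none.

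Around eIF2, 7 of 21 genes were listed. EIF2A, an initiation factor that is separate from the eIF2 complex, was longer by 0.440, and IMPACT, an inhibitor of the eIF2 kinase GCN2, by 0.145 in the authors' deposited table from 3' end-seq. EIF2B2 and EIF2B3, subunits of the exchange factor of eIF2, were distal by 0.867 and 0.799, and PPP1CC, a phosphatase catalytic subunit, by 1.12 in the authors' deposited RNA-seq table. The largest intron change was 8.6 points in size in PPP1CC, 4.3 in PPP1CB and 3.5 in PPP1R15B, which targets the phosphatase to eIF2 alpha, in the authors' deposited table.

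Of 33 further ATF4 targets, 9 were listed. STC2, a secreted glycoprotein, was longer by 0.343, CEBPG, a dimer partner of ATF4, by 0.333, the threonyl-tRNA synthetase gene TARS1 by 0.274 and the tRNA exporter gene XPOT by 0.131 in the authors' deposited table. JDP2, a transcription factor related to ATF3, was distal by 2.32 and the amino acid transporter gene SLC1A4 by 0.310 in the authors' deposited RNA-seq table. SHMT2, a mitochondrial enzyme of serine metabolism, had an intron change of 16.3 points in size, and the tRNA synthetase genes LARS1 and AARS1 of 10.9 and 4.0 points, in the authors' deposited table.

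Among 23 other folding genes, SEC63, a BiP partner at the translocon, was longer by 0.402 in the authors' deposited table. DNAJC10 had a cryptic site past its 3'UTR with usage of 12.5% in TDP-43 shRNA neurons, against 1.95% in scrambled shRNA neurons, and FKBP2 an intron change of 5.1 points in size, in the authors' deposited tables. Among 21 other genes of ER-associated degradation, the channel component DERL1 was longer by 0.297 and the ubiquitin-conjugating enzyme gene UBE2J2 by 0.139 in the authors' deposited table. OS9, a lectin that delivers misfolded glycoproteins, had 3 changed clusters with largest changes of 17.6, 3.4 and 1.9 points in size, and ERLEC1 and MARCHF6 had changes of 3.2 and 1.8 points, in the authors' deposited table. Among 16 cytosolic and mitochondrial chaperones and proteases, CLPP was distal by 1.30 and HSP90AA1 was proximal at -0.571 in the authors' deposited RNA-seq table. The clusters of HSP90AA1 changed by up to 2.1 and 1.5 points in size, those of HSP90AB1 by up to 2.3 and 1.4, and that of LONP1 by up to 3.9, in the authors' deposited table.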

How the data were processed

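RNA-seq (SMARTer total RNA kit) and 3' end-seq (QuantSeq REV) libraries were made by the authors, per the labels' protocols. Tools named, without roles, in the submitters' processing notes are STAR, Salmon, fastp, SAMtools and DESeq2, with build hg38. For polyadenylation changes and cryptic sites the caller is not given in the sources. The changes of usage index and of intron share are scores deposited by the authors, and the p-values are adjusted p-values deposited by the authors, up to 0.05. Site usage is a fraction deposited by the authors, 1 value per group, printed as a percent. A gene table was used for its gene names only: its 6 columns of per-sample values are numbered, no label ties a number to a group, and the planned expression test was not run. Nothing was fitted or tested here. Symbols were matched directly or through RefSeq synonyms (GRCh38.p14), and percentiles, distances and counts were computed in Python 3.11.15 (numpy 2.4.6, pandas 2.3.3), with functions first tested on simulated data. The members and related lists were chosen with earlier results of these data known. All listed members are named; of each related list, all listed genes but 1, which is counted and not reported here.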

Additional observations from a re-analysis of the deposited data

How the results depend on the processing

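Of 15 alternative settings for the counts of members listed, 10 gave a count within 1.5 times. Among these 10, matching by exact symbol only and keeping clusters that name a single gene left the same genes listed. Those settings therefore say little about stability. The 10 also include the fall from 6 to 4 members from 3' end-seq with a change of at least 0.2. The single RNA-seq member, EIF2S1, gave a count of 0 with an adjusted p up to 0.01 and also with an absolute change of at least 0.5. The cryptic site of VLDLR gave a count of 0 when control usage had to be at most 3%. The count of 3 members with a changed splicing cluster became 1, HYOU1, with an adjusted p up to 0.01, and also with an intron change of at least 10 points. These settings remove entries by construction. All 6 members from 3' end-seq had an adjusted p up to 0.01, and 4 had a change of at least 0.2. No paired analysis was possible because the tables of changes hold no value per library and the per-sample columns of the gene table name no sample. For the same reason no replicate could be left out, and no depth limit can be given. The alternatives planned for expression (pseudocount, filter, block, left-out replicates and another count model) were not run, since no expression was analysed.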

Other observations

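Entries under another name overlapped the RefSeq span of ASNS and of ATF5 in part. The gene ENSG00000284707, which has no symbol in the table, was called longer by 0.226 in the authors' deposited table from 3' end-seq (adjusted p = 9.09e-19). Its rising site at 97922782 on the minus strand of chromosome 7 lies within the span of ASNS on the same strand, while its falling site at 97946944, 24162 nt away, lies outside it. A splicing cluster of NUP62, a nuclear pore gene on the minus strand of chromosome 19, reaches from 49909884 to 49929417 and overlaps the start of ATF5, which is on the plus strand. It had 13 introns and a largest change of 9.8 points in size in the authors' deposited table (adjusted p = 0.0154). ATF5 itself was not listed. Neither entry was counted for ASNS or ATF5.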
